A study of Mus musculus with 12 samples.

Results

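The genes of 10 transcription factors that set and keep the identity of the intestinal absorptive cell were followed in mouse small intestine. They are the nuclear receptor genes Hnf4a and Hnf4g, the homeobox genes Cdx1 and Cdx2, the zinc finger genes Gata4, Gata6, Klf4, Klf5 and Prdm1, and the large Maf gene Maf. The 10 members were found among 54532 genes by their exact gene name, and each name stood on 1 row. RNA from whole tissue of C57BL/6J mice gave 12 libraries in 4 groups of 3. CKO NEC tissue came from mice with a Piezo1 knockout restricted to intestinal epithelial cells in which necrotizing enterocolitis (NEC), a necrotic inflammation of the newborn bowel, had been induced, and flox NEC tissue came from floxed control mice with NEC. CKO control and flox control tissue came from the same genotypes without NEC. Piezo1 encodes a mechanically gated cation channel. The Cre driver, the age of the mice, the way NEC was induced and the stretch of small intestine taken are not given in the labels.

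HNF4, CDX and GATA factors bind the control regions of enterocyte genes together, and KLF4 and KLF5 act along the path from the dividing crypt to the differentiated villus. PRDM1, also called BLIMP1, holds the enterocytes of the suckling mouse in their neonatal state, and its loss in mice brings on genes of the adult gut early. MAF is expressed in enterocytes and in tissue macrophages. Several of these genes also act in other tissues. Gene coordinates below are as deposited, on GRCm38 as judged by their match to GENCODE M21, where 98.3% of the genes matched had identical coordinates.

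Depth was 13057724 to 16821130 reads per library. Levels below are FPKM, read counts scaled by gene length and depth, put on 1 scale shared by the 12 libraries, since NEC and control values were deposited in 2 separately scaled tables. Changes are differences of log2(FPKM + 1). Whether NEC and control mice differed in age or were handled in separate batches is not stated. Neither can be told apart from NEC in the comparisons of NEC with control below. Whether each library is a separate mouse is not stated, so the p-values below reflect how far libraries of a group scatter. Piezo1 (ENSMUSG00000014444) stood at 4.86, 5.02 and 2.98 FPKM in CKO NEC libraries and 6.61, 6.51 and 6.101 FPKM in flox NEC libraries. In uninjured tissue it stood at 1.72, 1.04 and 0.931 FPKM in CKO control libraries and 1.39, 1.45 and 1.09 FPKM in flox control libraries. The CKO libraries were lower in NEC and overlapped flox in control, and neither difference passed the limma test (adjusted p = 0.84005 in NEC and 0.846 in control), so Piezo1 does not check the genotype labels of the uninjured libraries. The 8 epithelium markers, such as Epcam and Vil1, summed to 2545 to 3414 FPKM in CKO NEC, 2529 to 2994 in flox NEC, 3214 to 3755 in CKO control and 2513 to 3224 in flox control libraries. Their mean log2 level differed by 0.17 between CKO control and flox control libraries without overlap, and the other group pairs overlapped. Between NEC and control 3 of the 8 were called higher and 2 lower in flox tissue (56.4% of all genes were called). In CKO tissue 2 were called higher and 1 lower (37.9% of all genes were called). Levels given below relative to these markers therefore also carry changes of the markers.

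Promoter windows of 3 members are shown because each holds a word read by HNF4, CDX or GATA factors, the families of other members. Each holds the 250 bases before and 50 after a start of transcription on GRCm38.p6, read along the gene. RefSeq promoter sequences were at hand for 4 of the 10 members (Hnf4a, Klf4, Cdx2 and Prdm1). Capitals mark short words on either strand. CAAAG is the core that HNF4 reads, TTTAT is the core of CDX sites, AGATAA is a GATA site, and CACCC is a KLF site.
Hnf4a, upstream start, chr2:163506607-163506906, plus strand: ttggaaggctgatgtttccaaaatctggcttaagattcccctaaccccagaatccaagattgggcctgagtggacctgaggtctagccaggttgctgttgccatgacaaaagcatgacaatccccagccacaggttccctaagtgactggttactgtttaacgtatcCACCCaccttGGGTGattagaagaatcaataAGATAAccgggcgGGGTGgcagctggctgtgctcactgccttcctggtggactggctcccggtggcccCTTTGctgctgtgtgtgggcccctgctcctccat
Klf4, chr4:55532426-55532725, minus strand: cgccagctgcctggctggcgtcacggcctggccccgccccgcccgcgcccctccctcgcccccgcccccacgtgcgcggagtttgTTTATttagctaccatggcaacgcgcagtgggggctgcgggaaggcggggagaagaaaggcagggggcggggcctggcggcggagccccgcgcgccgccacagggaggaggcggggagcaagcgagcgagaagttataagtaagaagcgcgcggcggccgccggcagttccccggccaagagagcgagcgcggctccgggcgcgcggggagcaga
Prdm1, chr10:44458699-44458998, minus strand: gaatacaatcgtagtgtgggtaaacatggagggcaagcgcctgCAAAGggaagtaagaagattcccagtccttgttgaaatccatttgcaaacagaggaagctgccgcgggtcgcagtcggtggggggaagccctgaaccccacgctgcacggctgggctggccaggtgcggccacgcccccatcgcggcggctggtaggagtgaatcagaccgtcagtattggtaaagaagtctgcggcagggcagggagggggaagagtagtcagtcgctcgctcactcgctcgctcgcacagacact
The Hnf4a window held 1 match to the HNF4 word, 1 to the GATA word and 3 to the KLF word. The Klf4 window held 1 match to the CDX word, and the Prdm1 window 1 to the HNF4 word. The windows of Cdx2 and of a downstream Hnf4a start, not printed, held the KLF word alone, with 1 and 5 matches. Of 32851 mouse promoter windows of this length, 53.9% held the HNF4 word, 40.01% the CDX word, 11.2% the GATA word and 57.5% the KLF word. The CDX word can overlap a TATA box, TATAAA, which 13.6% of the windows held and these 3 did not. A match is a description of letters and not a bound site.

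The 10 genes ran from single digits to above 100 FPKM, and their order began and ended alike in the 4 groups. Hnf4a, Cdx1 and Cdx2 held the first 3 places in each group and Gata4 the last. In CKO NEC tissue Cdx1, Cdx2 and Hnf4a averaged 119 ± 15.5, 116 ± 10.8 and 115 ± 32.7 FPKM (SD, n = 3), with overlapping libraries. In flox control tissue Hnf4a, Cdx2 and Cdx1 averaged 121 ± 32.1, 109 ± 8.92 and 101 ± 13.4 FPKM, again with overlap. Below them in CKO NEC tissue came Klf4 (74.2 ± 24.1 FPKM), Klf5 (65.01 ± 4.37), Hnf4g (48.5 ± 2.55), Maf (27.9 ± 7.74), Gata6 (23.7 ± 2.21), Prdm1 (12.5 ± 5.4999) and Gata4 (4.82 ± 7.32). Neighbours in that order were apart between Klf5 and Hnf4g, Hnf4g and Maf, and Gata6 and Prdm1, and overlapped elsewhere. Flox NEC tissue began with Hnf4a (112 ± 12.3 FPKM) and then had the same order. There Klf4 was apart from Klf5, Hnf4g from Maf, Gata6 from Prdm1 and Prdm1 from Gata4. In CKO control tissue Hnf4a (149 ± 5.83 FPKM) stood apart from Cdx2 (141 ± 1.31), and Cdx2 from Cdx1 (103 ± 7.02). Klf4, Maf, Klf5, Hnf4g, Gata6 and Prdm1 followed there, with Maf apart from Klf5, Hnf4g from Gata6 and Prdm1 from Gata4. In flox control tissue Cdx1 was apart from Maf, which was followed by Klf4, Klf5 and Gata6 with overlap, then by Prdm1 and Hnf4g, each apart from the gene above it. Hnf4g and Maf moved furthest in the order, by 3 places each. Hnf4g held place 6 in both NEC groups, place 7 in CKO control and place 9 in flox control tissue, and Maf place 7 in both NEC groups, place 5 in CKO control and place 4 in flox control tissue.

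**Figure D1:**
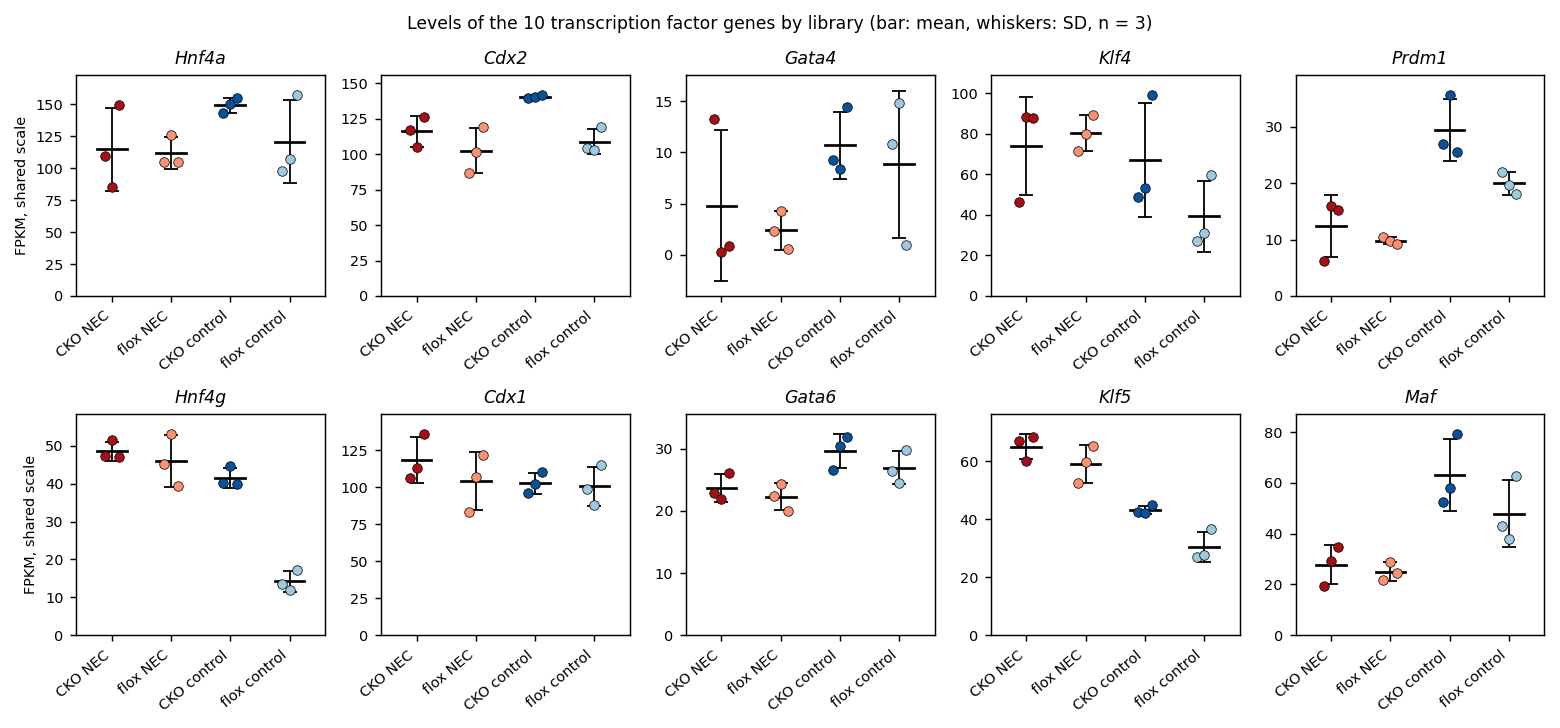
FPKM on the shared scale (vertical axes, each from 0 except that of Gata4, which makes room for the SD) for each of the 10 genes in CKO NEC, flox NEC, CKO control and flox control tissue. Points are libraries, bars means and whiskers SD (n = 3); Hnf4g stood at 11.95 to 17.1 FPKM in flox control tissue and at 39.3 FPKM or more in every other library.

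Hnf4g (ENSMUSG00000017688, chromosome 3, 3508030 to 3658052, plus strand), the HNF4 paralog that shares enterocyte targets with Hnf4a, was the member that differed between groups by the largest log2 genotype change. It had 47.2, 51.5 and 46.9 FPKM in CKO NEC libraries and 45.3, 53.1 and 39.3 FPKM in flox NEC libraries. It had 40.2, 44.6 and 39.9 FPKM in CKO control libraries and 13.5, 11.95 and 17.1 FPKM in flox control libraries. The flox control libraries were below all of the other 9, CKO and flox overlapped in NEC, and the 3 CKO control libraries were above the flox control libraries. In NEC tissue the CKO difference from flox was 0.07 ± 0.14 SE (adjusted p = 0.919). In control tissue it was 1.498 ± 0.15 SE (adjusted p = 0.0547), just outside the threshold of 0.05, although by p it ranked 2 of the 13300 genes tested. The interaction, the CKO difference in NEC less that in control, passed at -1.42 ± 0.204 SE (adjusted p = 0.0367), the only member to do so of 10, beside 1.22% of 14808 genes in all and 1.01% called lower. It ranked 5 by p. NEC against control was 1.63 ± 0.16 SE (adjusted p = 2.57e-04) in flox tissue, which passed, and 0.22 ± 0.12 SE (adjusted p = 0.196) in CKO tissue, which did not, although the 3 CKO NEC libraries lay above the 3 CKO control libraries. In bulk tissue fewer cells of a type and less RNA per cell cannot be told apart.

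The Hnf4g interaction was past the threshold in 3 of the 12 fits that left out 1 library. Leaving out CKO NEC library 1, CKO NEC library 2, flox NEC library 1, flox NEC library 2, flox NEC library 3, CKO control library 1, CKO control library 2, flox control library 1 or flox control library 2 ended the call, with changes of -1.53 to -1.31 and adjusted p of 0.0622 to 0.113. It was -1.38 (adjusted p = 0.0501) with equal library medians. After quantile normalization the NEC change of Hnf4g passed in CKO tissue as well (0.55, adjusted p = 0.0240). The control difference of Hnf4g passed without flox control library 3 (1.63, adjusted p = 0.0428) and in 5 of the 10 alternatives that kept every library (adjusted p of 0.00318 to 0.122 over the 10). Relative to the mean of the epithelium markers in each library, Hnf4g was 1.33 log2 higher in CKO control than in flox control libraries without overlap, and 1.36 higher in flox NEC than in flox control libraries without overlap.

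Hnf4a (ENSMUSG00000017950, chromosome 2, 163506808 to 163572910, plus strand), an HNF4 gene of liver and gut, had 109.6, 85.1 and 149.9 FPKM in CKO NEC libraries and 105, 126 and 105 FPKM in flox NEC libraries. It had 143, 149.97 and 155 FPKM in CKO control libraries and 97.8, 107 and 158 FPKM in flox control libraries. The groups overlapped in all 4 pairs, and flox control library 3 was above the CKO control libraries. The CKO difference from flox was -0.01 ± 0.21 SE (adjusted p = 0.993) in NEC and 0.33 ± 0.19 SE (adjusted p = 0.292) in control tissue. NEC against control was -0.41 ± 0.22 SE (adjusted p = 0.177) in CKO and -0.08 ± 0.19 SE (adjusted p = 0.732) in flox tissue, and its sign in flox turned under another scaling (0.33 after quantile normalization and 0.07 on deposited FPKM), as it did in CKO (0.0091 after quantile normalization). Without CKO NEC library 3 the fall in CKO tissue passed (-0.62, adjusted p = 0.0380). Relative to the mean of the epithelium markers in each library, Hnf4a was 0.59 log2 lower in CKO NEC than in CKO control libraries. By that measure it was 0.35 lower in flox NEC than in flox control libraries, both without overlap. The Hnf4a locus also holds the antisense gene Hnf4aos, read at 0.481 to 15.2 FPKM, and the sources used here do not say whether counting used strand, so reads of the pair may be mixed.

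The ratio of Hnf4g to Hnf4a within a library does not depend on library scaling. It was 0.431, 0.605 and 0.313 in CKO NEC libraries, 0.432, 0.4202 and 0.374 in flox NEC libraries, 0.281, 0.297 and 0.258 in CKO control libraries and 0.138, 0.111 and 0.109 in flox control libraries. Every NEC library had a higher ratio than every control library. The mean log2 ratio was 1.21 higher in NEC than in control (two-sided exact permutation test within genotype, p = 0.005, the smallest that its 400 arrangements can give, and 0.04 adjusted over 8 tests), and this held without any 1 library (1.09 to 1.33). It was 0.66 higher in CKO than in flox tissue (exact permutation test, adjusted p = 0.107), a difference that passed without CKO NEC library 3 (0.78, adjusted p = 0.0267).

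**Figure D2:**
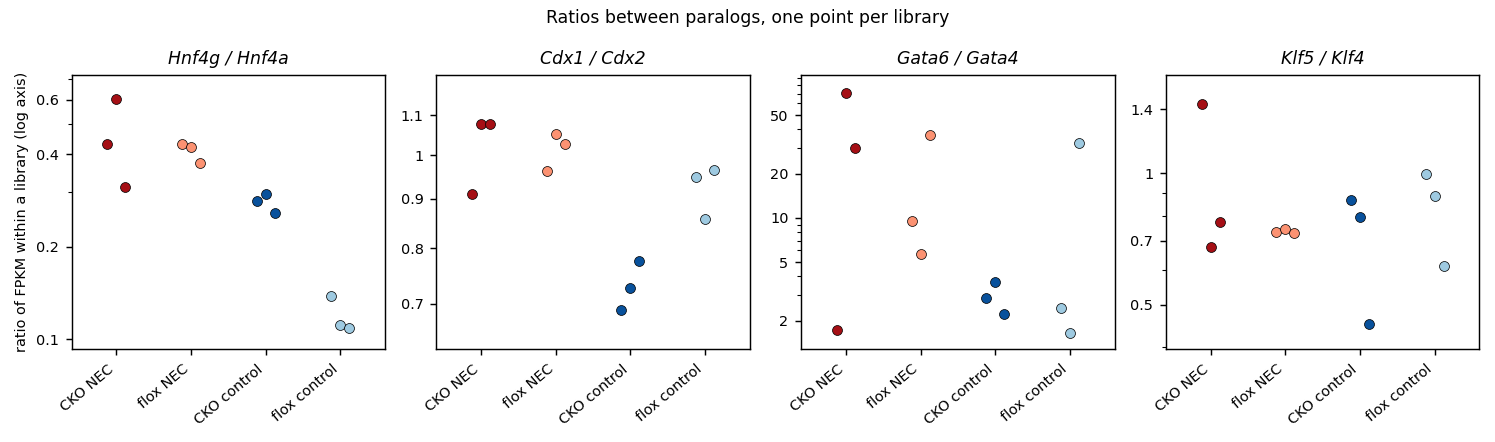
Ratio of FPKM between paralogs within a library (vertical log axes) in the 4 groups, 1 point per library. The Hnf4g to Hnf4a ratio ran from 0.313 to 0.605 in CKO NEC, 0.374 to 0.432 in flox NEC, 0.258 to 0.297 in CKO control and 0.109 to 0.138 in flox control tissue.

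Of 10 genes with described HNF4 input in enterocytes, 1 was called higher and 4 lower in NEC than in control in CKO tissue (median of -1.29, against -0.02 over all genes), and 1 higher and 5 lower in flox tissue (median of -0.90, against 0.01 over all genes). The 5 and 6 called stand beside 37.9% of all genes called in CKO and 56.4% in flox tissue. Apoc3, an apolipoprotein of triglyceride-rich particles, fell to 143 to 247 FPKM in CKO NEC tissue, against 867 to 1748 FPKM in CKO control tissue. Alpi, the brush border alkaline phosphatase, fell to 339 to 762 FPKM in CKO NEC tissue, against 1405 to 1966 FPKM in CKO control tissue. In flox tissue Apoc3 changed by -3.26 ± 0.29 SE (adjusted p = 1.65e-04) and Alpi by -1.54 ± 0.17 SE (adjusted p = 3.23e-04). Mttp, which loads lipid onto apolipoprotein B, was the member called higher, by 0.602 ± 0.1996 SE (adjusted p = 0.0496) in CKO and 1.56 ± 0.25 SE (adjusted p = 0.00169) in flox tissue. In the control genotype comparison 0 of the 10 were called and 2 stood apart, both higher, while 21.8% of all genes stood apart higher, so this share is near that of all genes. These were Apob, at 288 to 362 FPKM in CKO control and 129.6 to 199 FPKM in flox control tissue, and Mttp, at 200.4 to 249.6 FPKM in CKO control and 91.6 to 147 FPKM in flox control tissue.

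Cdx2 (ENSMUSG00000029646, chromosome 5, 147300805 to 147307270, minus strand), the homeobox factor that specifies intestinal rather than gastric fate, had 117, 105 and 126 FPKM in CKO NEC libraries and 86.8, 102 and 119 FPKM in flox NEC libraries. It had 139, 140.4 and 142 FPKM in CKO control libraries and 104, 103 and 119 FPKM in flox control libraries. The 3 CKO control libraries lay within 3 FPKM of each other and above all flox control and all NEC libraries. The CKO difference from flox was 0.37 ± 0.12 SE (adjusted p = 0.102) in control and 0.17 ± 0.15 SE (adjusted p = 0.851) in NEC tissue. NEC against control was -0.28 ± 0.14 SE (adjusted p = 0.167) in CKO tissue, where the groups did not overlap, and -0.09 ± 0.14 SE (adjusted p = 0.597) in flox tissue, where they did. Both signs turned after quantile normalization (0.15 in CKO and 0.33 in flox), and the flox sign on deposited FPKM (0.06). Relative to the epithelium markers Cdx2 was 0.46 log2 lower in NEC in CKO and 0.36 lower in flox tissue, each without overlap.

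Cdx1 (ENSMUSG00000024619), its paralog in the intestinal crypt, had 107, 113 and 136 FPKM in CKO NEC libraries and 83.5, 107 and 122 FPKM in flox NEC libraries. It had 96.1, 102 and 110.1 FPKM in CKO control libraries and 99.1, 88.2 and 115 FPKM in flox control libraries. The 4 groups overlapped in every pair compared. Relative to the epithelium markers, flox NEC libraries were 0.23 log2 below flox control libraries without overlap, and the other pairs overlapped. The CKO difference was 0.18 ± 0.17 SE (adjusted p = 0.862) in NEC and 0.03 ± 0.14 SE (adjusted p = 0.891) in control tissue, and NEC against control 0.2003 ± 0.16 SE (adjusted p = 0.343) in CKO and 0.04 ± 0.17 SE (adjusted p = 0.855) in flox tissue. After quantile normalization both NEC changes passed, at 0.61 (adjusted p = 0.00810) in CKO and 0.46 (adjusted p = 0.0339) in flox tissue. The ratio of Cdx1 to Cdx2 was 0.911, 1.08 and 1.08 in CKO NEC libraries, 0.962, 1.05 and 1.03 in flox NEC libraries, 0.6897, 0.727 and 0.776 in CKO control libraries and 0.949, 0.857 and 0.964 in flox control libraries. The CKO control libraries had the 3 lowest ratios of the 12. The mean log2 ratio was 0.31 higher in NEC than in control (two-sided exact permutation test, p = 0.01, adjusted p = 0.04). Leaving out flox NEC library 2 ended that call (0.295, adjusted p = 0.08), and so did leaving out flox NEC library 3 (0.304), flox control library 1 (0.32) or flox control library 2 (0.28), each with an adjusted p of 0.06 by the exact test. CKO against flox was -0.16 (exact permutation test, adjusted p = 0.15).

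Of 8 genes with described CDX2 input, 2 were called higher and 4 lower in NEC in CKO tissue, and 3 in each direction in flox tissue, beside 37.9% of all genes called in CKO and 56.4% in flox tissue. Sis, the sucrase-isomaltase of the weaned gut, and Lct, the lactase of the suckling gut, went opposite ways. Sis had 36.1 to 115 FPKM in CKO NEC and 0.931 to 1.35 FPKM in CKO control tissue, a change of 4.73 ± 0.41 SE (adjusted p = 0.00121). In flox tissue Sis had 66.4 to 164 FPKM in NEC and 0.701 to 1.15 FPKM in control, a change of 5.82 ± 0.299 SE (adjusted p = 4.42e-05). Lct changed by -3.99 ± 0.74 SE (adjusted p = 0.00752) in CKO and -2.57 ± 0.37 SE (adjusted p = 0.00107) in flox tissue. Isx, a homeobox factor that curbs carotenoid and vitamin A uptake, changed by -0.87 ± 0.16 SE (adjusted p = 0.00708) in CKO and -0.88 ± 0.15 SE (adjusted p = 0.00238) in flox tissue. All 8 had a positive CKO change in control tissue (median of 0.62, against 0.04 over all genes), and 0 were called, beside 1 of 13300 genes in all.

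Gata4 (ENSMUSG00000021944, chromosome 14, 63198922 to 63271692, minus strand), the GATA factor of the proximal small intestine, varied more between libraries than any other member. It had 13.3, 0.309 and 0.883 FPKM in CKO NEC libraries and 2.36, 4.31 and 0.546 FPKM in flox NEC libraries. It had 9.27, 8.35 and 14.5 FPKM in CKO control libraries and 10.8, 14.8 and 0.926 FPKM in flox control libraries. CKO NEC library 1 lay within the range of the control libraries and flox control library 3 within that of the NEC libraries, so the groups overlapped in every comparison. The values came from 21 reads in the lowest library and 966 in the highest. NEC against control was -1.7999 ± 0.82 SE (adjusted p = 0.121) in CKO tissue and -1.23 ± 0.802 SE (adjusted p = 0.224) in flox tissue. Without CKO NEC library 1 the CKO fall passed (-2.86, adjusted p = 0.00439), and without flox control library 3 the flox fall passed (-2.18, adjusted p = 0.00605), as it did with array weights (-1.91, adjusted p = 0.0355). The CKO difference from flox was 0.096 ± 0.92 SE (adjusted p = 0.988) in NEC and 0.68 ± 0.74 SE (adjusted p = 0.574) in control tissue, the largest standard errors of any member.

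Fabp1, a fatty acid binding protein of proximal enterocytes, followed Gata4 by library (Pearson r = 0.911 over 12 libraries). It had 575, 2.28 and 6.35 FPKM in CKO NEC libraries and 37.5, 142 and 17.2 FPKM in flox NEC libraries. It had 328, 262 and 105 FPKM in CKO control libraries and 315, 774 and 0.503 FPKM in flox control libraries. The lowest Fabp1 value of all, in flox control library 3, stood beside the lowest Gata4 value among the control libraries. Slc10a2, the ileal bile acid transporter, and Fabp6, the ileal bile acid binding protein, are among 4 ileal genes that rise in the jejunum of mice lacking GATA4. Fabp6 had 489.8 FPKM in flox control library 3 against 45.1 and 28.4 FPKM in the other flox control libraries, and Slc10a2 had 6.58 against 0.0479 and 0.0654 FPKM. Of the 4, 2 were called higher in NEC in CKO tissue (17.5% of all genes were) and 1 in flox tissue (28.7% of all genes were). None was called lower, but 1 change was negative in CKO and 2 were negative in flox tissue. The latter were Slc51a (-0.47 ± 0.404 SE) and Slc51b (-0.79 ± 0.425 SE). Slc51b stood apart lower in flox NEC. Slc10a2 had 6.02 to 19.2 FPKM in CKO NEC and 0.177 to 1.2996 FPKM in CKO control tissue (3.01 ± 0.41 SE (adjusted p = 0.00337)), and it changed by 3.21 ± 0.71 SE (adjusted p = 0.00666) in flox tissue. Fabp6 changed by 2.49 ± 0.45 SE (adjusted p = 0.00666) in CKO and 1.35 ± 0.95 SE (adjusted p = 0.2603) in flox tissue. Where along the gut each library was taken is not stated, and its part in these values was not tested.

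**Figure D3:**
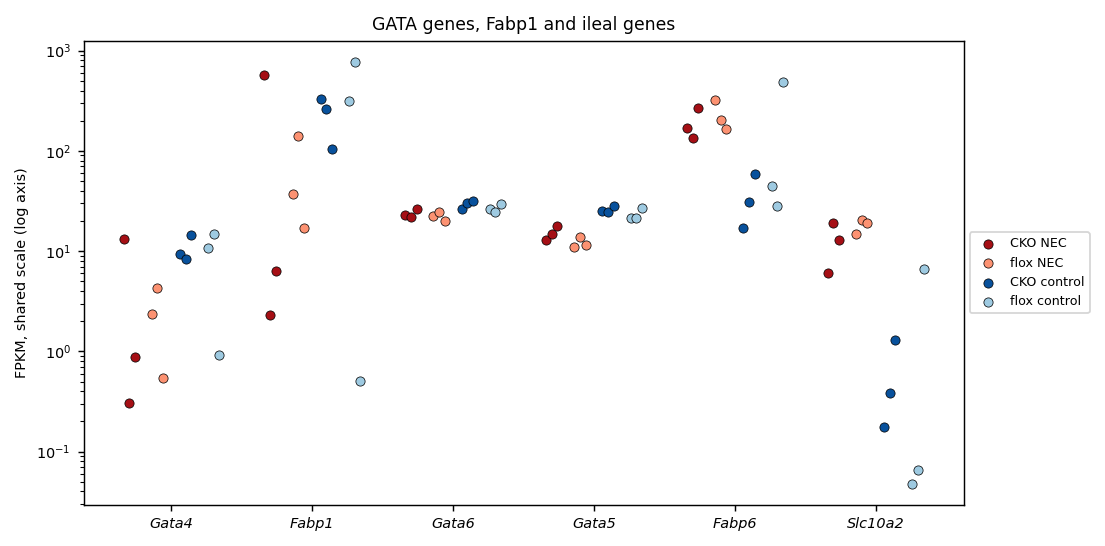
FPKM on the shared scale (vertical log axis) of Gata4, Fabp1, Gata6, Gata5, Fabp6 and Slc10a2, 1 point per library in the 4 groups. Gata4 and Fabp1 were spread within groups, Fabp1 from 0.503 to 774 FPKM, while Gata6 ranged from 20.1 to 31.8 FPKM.

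Gata6 (ENSMUSG00000005836), the GATA factor expressed along the length of the intestine, was steadier. It had 22.9, 21.9 and 26.2 FPKM in CKO NEC libraries and 22.3, 24.4 and 20.1 FPKM in flox NEC libraries. It had 26.5, 30.5 and 31.8 FPKM in CKO control libraries and 26.5, 24.5 and 29.8 FPKM in flox control libraries. NEC libraries lay below control libraries of the same genotype without overlap in both genotypes, at -0.31 ± 0.13 SE (adjusted p = 0.102) in CKO and -0.26 ± 0.12 SE (adjusted p = 0.0995) in flox tissue, and neither passed. With equal library medians the flox change passed (-0.34, adjusted p = 0.0404). Relative to the epithelium markers Gata6 was 0.49 log2 lower in NEC in CKO and 0.53 lower in flox tissue, each without overlap. The genotypes overlapped in both conditions, with CKO differences of 0.07 ± 0.12 SE (adjusted p = 0.904) in NEC and 0.13 ± 0.13 SE (adjusted p = 0.524) in control tissue. The antisense gene 1010001N08Rik overlaps the locus and was read at 2.70 to 7.99 FPKM. Gata5, another GATA gene of the gut epithelium, changed by -0.76 ± 0.15 SE (adjusted p = 0.00843) in CKO and -0.88 ± 0.13 SE (adjusted p = 0.00133) in flox tissue. The ratio of Gata6 to Gata4 ran from 1.72 to 71.1 in CKO NEC, 5.65 to 36.7 in flox NEC, 2.20 to 3.65 in CKO control and 1.65 to 32.2 in flox control tissue, with a mean log2 difference of 1.87 between NEC and control (exact permutation test, adjusted p = 0.184).

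Klf5 (ENSMUSG00000005148, chromosome 14, 99298691 to 99315036, plus strand), the KLF factor of dividing crypt cells, stood higher in NEC in both genotypes. It had 66.8, 60.02 and 68.2 FPKM in CKO NEC libraries and 52.4, 59.6 and 65.4 FPKM in flox NEC libraries. It had 42.5, 42.03 and 44.8 FPKM in CKO control libraries and 27.1, 27.7 and 36.5 FPKM in flox control libraries. All 6 NEC libraries were above all 6 control libraries, and the CKO control libraries were above the flox control libraries. The NEC change was 0.58 ± 0.12 SE (adjusted p = 0.0118) in CKO and 0.94 ± 0.15 SE (adjusted p = 0.001597) in flox tissue, and both passed. Without CKO control library 2 the CKO change was 0.56 and did not pass (adjusted p = 0.0517). CKO against flox was 0.502 ± 0.14 SE (adjusted p = 0.0824) in control tissue, which passed without flox control library 3 (0.64, adjusted p = 0.0431), and 0.12 ± 0.12 SE (adjusted p = 0.867) in NEC tissue.

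Klf4 (ENSMUSG00000003032, chromosome 4, 55527143 to 55532466, minus strand), the KLF factor of differentiated cells that colonic goblet cells of mice need, had 46.3, 88.3 and 87.9 FPKM in CKO NEC libraries and 71.4, 79.99 and 89.3 FPKM in flox NEC libraries. It had 48.8, 53.1 and 99.3 FPKM in CKO control libraries and 27.1, 31.2 and 59.5 FPKM in flox control libraries. The flox groups did not overlap, the CKO groups did, and in both control groups library 3 was the highest by far. NEC against control passed in flox tissue at 1.09 ± 0.28 SE (adjusted p = 0.0118) and not in CKO tissue at 0.16 ± 0.35 SE (adjusted p = 0.738). The difference between those changes, the interaction, was -0.94 ± 0.49 SE (adjusted p = 0.2997). The CKO difference was -0.18 ± 0.25 SE (adjusted p = 0.896) in NEC and 0.77 ± 0.36 SE (adjusted p = 0.2101) in control tissue. The ratio of Klf5 to Klf4 had a mean log2 difference of 0.14 between NEC and control and of 0.02 between CKO and flox (exact permutation tests, adjusted p = 0.813 and 0.945). The summed level of 7 goblet cell markers, Muc2 among them, was 506 to 1213 FPKM in CKO NEC, 854 to 1352 in flox NEC, 478 to 735 in CKO control and 479 to 627 in flox control tissue, with none of the 7 under 1 FPKM throughout. In NEC 3 of the 7 were called higher in CKO tissue and 6 in flox tissue, and 0 lower in either. Of all genes 17.5% were called higher in CKO and 28.7% in flox tissue. The part of goblet cells in the Klf4 values was not tested.

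Among 20 relatives of the GATA, KLF, MAF, CDX and PRDM genes, 3 were called higher and 5 lower in NEC in CKO tissue, and 7 higher and 5 lower in flox tissue, of 13 and 14 tested. Of all genes 17.5% were called higher and 20.4% lower in CKO tissue, and 28.7% higher and 27.8% lower in flox tissue. Klf13 changed by 0.73 ± 0.13 SE (adjusted p = 0.00667) in CKO and 1.36 ± 0.13 SE (adjusted p = 2.11e-04) in flox tissue, and Klf7 by 0.96 ± 0.12 SE (adjusted p = 5.31e-04) in flox tissue. Klf6, an early response KLF gene, had 41.3 to 55.1 FPKM in flox NEC and 15.3 to 21.1 FPKM in flox control tissue (1.401 ± 0.16 SE (adjusted p = 4.13e-04)). Every called KLF relative was higher in NEC except Klf2, a KLF factor of endothelium and lymphocytes, which changed by -0.53 ± 0.16 SE (adjusted p = 0.0222) in flox tissue and is named after its values were seen. In control tissue 10 of 12 had a positive CKO change (median of 0.35, against 0.04 over all genes), and 0 were called, beside 1 of 13300 genes in all. Groups stood apart for 6 higher and 1 lower (21.8% and 12.7% of all genes).

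Prdm1 (ENSMUSG00000038151, chromosome 10, 44437177 to 44528501, minus strand) stood lower in NEC in both genotypes. It had 6.13, 15.96 and 15.3 FPKM in CKO NEC libraries and 10.4, 9.71 and 9.21 FPKM in flox NEC libraries. It had 26.98, 35.7 and 25.6 FPKM in CKO control libraries and 22.02, 19.8 and 18.1 FPKM in flox control libraries. The highest NEC library was below the lowest control library, and within control the CKO libraries were above the flox libraries. With NEC it changed by -1.26 ± 0.34 SE (adjusted p = 0.0244) in CKO and -0.96 ± 0.11 SE (adjusted p = 4.34e-04) in flox tissue. The CKO change did not pass without CKO control library 1 (-1.32, adjusted p = 0.0527), without CKO control library 2 (-1.12, adjusted p = 0.0726), with no filter on low values (adjusted p = 0.0665) or after quantile normalization (-1.0968, adjusted p = 0.0512). CKO against flox was 0.53 ± 0.16 SE (adjusted p = 0.0886) in control and 0.21 ± 0.32 SE (adjusted p = 0.901) in NEC tissue. PRDM1 is also a factor of plasma cells. The 5 B and plasma cell markers, 1 of them under 1 FPKM in every library, summed to 38.4 to 56.5 FPKM in CKO NEC, 39.3 to 49.1 in flox NEC, 34.4 to 46.5 in CKO control and 19.2 to 65.5 in flox control tissue, ranges that overlapped between NEC and control. The single markers did change. Sdc1 alone of the 5 passed the filter on low values among the NEC libraries. In CKO tissue 3 were tested (median of -2.40), with Sdc1 called higher and Cd79a and Cd79b lower in NEC (37.9% of all genes were called). In flox tissue 2 were tested, with Sdc1 called higher and Cd79a lower (56.4% of all genes were called). The part of these cells in the Prdm1 values was not tested.

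Maf (ENSMUSG00000055435, chromosome 8, 115682942 to 115707794, minus strand) stood lower in NEC as well. It had 19.5, 29.4 and 34.7 FPKM in CKO NEC libraries and 21.8, 28.9 and 24.4 FPKM in flox NEC libraries. It had 52.3, 57.8 and 79.3 FPKM in CKO control libraries and 43.02, 38.03 and 62.7 FPKM in flox control libraries. All 6 NEC libraries were below all 6 control libraries. Its NEC change was -1.17 ± 0.25 SE (adjusted p = 0.0114) in CKO and -0.89 ± 0.199 SE (adjusted p = 0.00722) in flox tissue, both past the threshold and past it without any 1 library. CKO against flox was 0.11 ± 0.21 SE (adjusted p = 0.925) in NEC and 0.4003 ± 0.23 SE (adjusted p = 0.28997) in control tissue, with overlap.

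Macrophages also express Maf. The 7 macrophage markers, C1qa and Csf1r among them, summed to 40.5 to 50.99 FPKM in CKO NEC, 49.1 to 59.9 in flox NEC, 95.2 to 113 in CKO control and 104 to 115 in flox control tissue. None of the 7 was under 1 FPKM throughout. In CKO tissue 2 of the 5 tested were called lower and 0 higher (20.4% of all genes were called lower and 17.5% higher). In flox tissue 6 were tested, with C1qa and Csf1r called lower and Cd163 and Mrc1 called higher. Of all genes 27.8% were called lower and 28.7% higher in flox tissue. The macrophage sum, though not every single marker, moved with Maf between NEC and control. The part of these cells in the Maf values was not tested. Relative to the epithelium markers, Prdm1 was 1.44 log2 lower and Maf 1.34 lower in CKO NEC than in CKO control libraries, and 1.22 and 1.15 lower in flox NEC than in flox control libraries, each without overlap. Some of those markers were themselves called between NEC and control, so this is not a level per epithelial cell.

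The genes of the suckling enterocyte, which take up and digest milk, fell with NEC. All 10 on the list were called lower in CKO tissue (median of -2.12, against -0.02 over all genes, of which 20.4% were called lower) and 9 of 10 in flox tissue (median of -2.04, against 0.01 over all genes, of which 27.8% were called lower). Fcgrt, the receptor for maternal IgG, had 74.97 to 131 FPKM in CKO NEC and 1074 to 1458 FPKM in CKO control tissue, and 66.6 to 94.2 FPKM in flox NEC and 566 to 1081 FPKM in flox control tissue. Amn, which anchors the endocytic receptor cubilin, changed by -2.34 ± 0.17 SE (adjusted p = 1.15e-04) in flox tissue, and Ass1, of arginine synthesis, by -2.74 ± 0.31 SE (adjusted p = 0.00207) in CKO tissue. Cubn, the gene of cubilin, was the exception in flox tissue (36.8 to 49.8 FPKM in NEC and 32.9 to 71.4 FPKM in control), named after its values were seen. Of 3 adult enterocyte genes that rise early in mice lacking PRDM1, Sis was called higher in both genotypes, with the values given above. Treh, the trehalase, changed by 0.31 ± 0.44 SE (adjusted p = 0.599) in CKO and 0.11 ± 0.41 SE (adjusted p = 0.827) in flox tissue, and Arg2 stayed under the filter at 0.546 FPKM or less. In control tissue all 10 suckling genes had a positive CKO change (median of 0.41, against 0.04 over all genes). Of these 0 were called, beside 1 of 13300 genes in all.

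**Figure D4:**
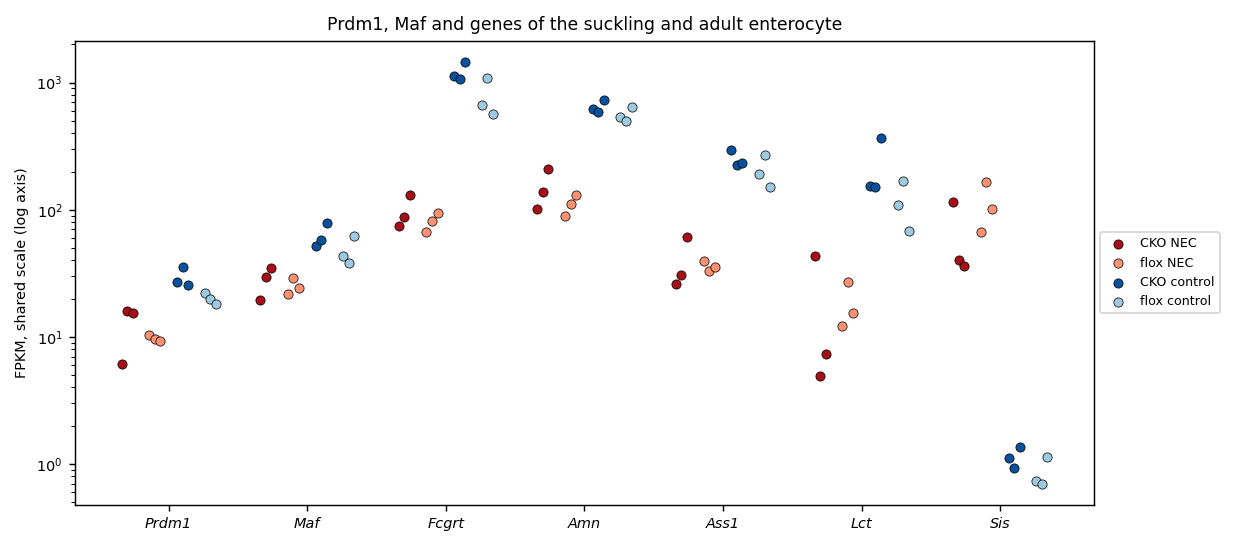
FPKM on the shared scale (vertical log axis) of Prdm1, Maf, 4 genes of the suckling enterocyte (Fcgrt, Amn, Ass1 and Lct) and Sis, 1 point per library in the 4 groups. The NEC libraries lie below the control libraries for the first 6 genes and above them for Sis, at 36.1 to 115 FPKM in CKO NEC, 66.4 to 164 in flox NEC, 0.931 to 1.35 in CKO control and 0.701 to 1.15 in flox control tissue.

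Set side by side, the 10 genes showed no genotype call in either condition. In NEC tissue 0 of 10 were called by limma, as were 0% of 13673 genes, 0 had an unadjusted p under 0.05 (599 of all genes did), and 0 stood apart from flox (11% of all genes did, 4.83% higher and 6.14% lower). The CKO change was positive in 8 of 10, with a median of 0.10 (0.01 over all genes). In control tissue 0 of 10 were called, beside 0.00752% of 13300 genes (1 gene), and 4 had an unadjusted p under 0.05 (3849 of all genes did). Those 4, Hnf4g, Cdx2, Klf5 and Prdm1, were also the members whose CKO libraries all lay above flox, where 21.8% of all genes did so and 34.5% stood apart in either direction. The change was positive in 10 of 10, with a median of 0.45 (0.04 over all genes). The signs of Cdx1 and Gata6, both under 0.15, turned after quantile normalization (-0.08 and -0.01). The mean log2 level of the 8 epithelium markers was also higher in the CKO control libraries, by 0.17. Of the 8, 5 had a positive and 3 a negative CKO change, and 0 were called. Relative to that mean Hnf4g, Cdx2 and Klf5 still stood apart (by 1.33, 0.20 and 0.33), while Prdm1 overlapped (0.36). Smooth muscle markers (6, Des and Myh11 among them, with none under 1 FPKM throughout) summed to 185 to 592 FPKM in CKO control and 676 to 864 FPKM in flox control tissue. All 6 were lower in CKO without overlap (12.7% of all genes were), with a median change of -0.88. In NEC tissue all 6 CKO changes were negative as well (median of -0.89), and 2 stood apart. The 6 fibroblast markers also had negative CKO changes in both conditions (median of -0.95 in control and -0.46 in NEC). The part of this mix in the result was not tested.

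Between NEC and control, 3 of 10 members were called in CKO tissue (37.9% of 13344 genes were, 17.5% higher and 20.4% lower), Klf5 higher and Prdm1 and Maf lower. In flox tissue 5 of 10 were called (56.4% of 13724 genes were, 28.7% higher and 27.8% lower), Hnf4g, Klf4 and Klf5 higher and Prdm1 and Maf lower. These shares are close to or below those of all genes. Marker sums of the tissue differed as well. The 9 enterocyte markers summed to 8108 to 11493 FPKM in CKO NEC and 17292 to 25844 FPKM in CKO control tissue, and to 6360.0 to 10241 FPKM in flox NEC and 18968 to 23982 FPKM in flox control tissue, with 1 called higher and 2 lower in CKO and 3 in each direction in flox. The 6 fibroblast markers, all called higher in both genotypes, summed to 278 to 464 FPKM in CKO NEC and 55.9 to 160.3 FPKM in CKO control tissue, and to 422 to 571 FPKM in flox NEC and 144 to 279.5 FPKM in flox control tissue. Of the 5 endothelium markers 5 were called higher in CKO and 4 in flox tissue, with sums of 34.6 to 42.02 FPKM in CKO NEC and 15.8 to 22.99 FPKM in CKO control tissue, and of 41.002 to 47.03 FPKM in flox NEC and 15.7 to 30.01 FPKM in flox control tissue. Smooth muscle sums were 511 to 2002 FPKM in CKO NEC and 1771 to 2789 FPKM in flox NEC tissue, against the control sums given above, with 1 marker called higher in CKO, and 5 higher and 1 lower in flox. None of these markers was under 1 FPKM throughout, and the part of this mix in the NEC changes of the members was not tested. The groups stood apart for 6 members in CKO tissue, 2 higher and 4 lower (53.7% of all genes, 25.1% higher and 28.6% lower), and for 6 in flox tissue, 3 in each direction (64.9% of all genes, 33.3% higher and 31.6% lower). The median change over the 10 was -0.29 in CKO and -0.09 in flox tissue. Among 20 other transcription factors of the gut epithelium, 19 of them tested, 7 were called higher and 5 lower in CKO tissue, and 9 higher and 5 lower in flox tissue. Ehf, an ETS factor of epithelia, had 17.2 to 27.2 FPKM in CKO NEC and 3.57 to 9.05 FPKM in CKO control tissue (1.77 ± 0.298 SE (adjusted p = 0.00575)), and in flox tissue it changed by 1.55 ± 0.12 SE (adjusted p = 1.23e-04). Bcl6, a repressor, changed by -1.08 ± 0.15 SE (adjusted p = 0.00372) in CKO and -1.15 ± 0.14 SE (adjusted p = 4.92e-04) in flox tissue, Smad4, the shared SMAD of TGF-beta and BMP signals, by 0.76 ± 0.12 SE (adjusted p = 0.00472) and 1.51 ± 0.13 SE (adjusted p = 1.54e-04), and Ppara, the fatty acid receptor, by 2.01 ± 0.25 SE (adjusted p = 5.69e-04) in flox tissue. Bcl6 was thus lower in NEC, and Ehf, Smad4 and Ppara higher.

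**Figure D5:**
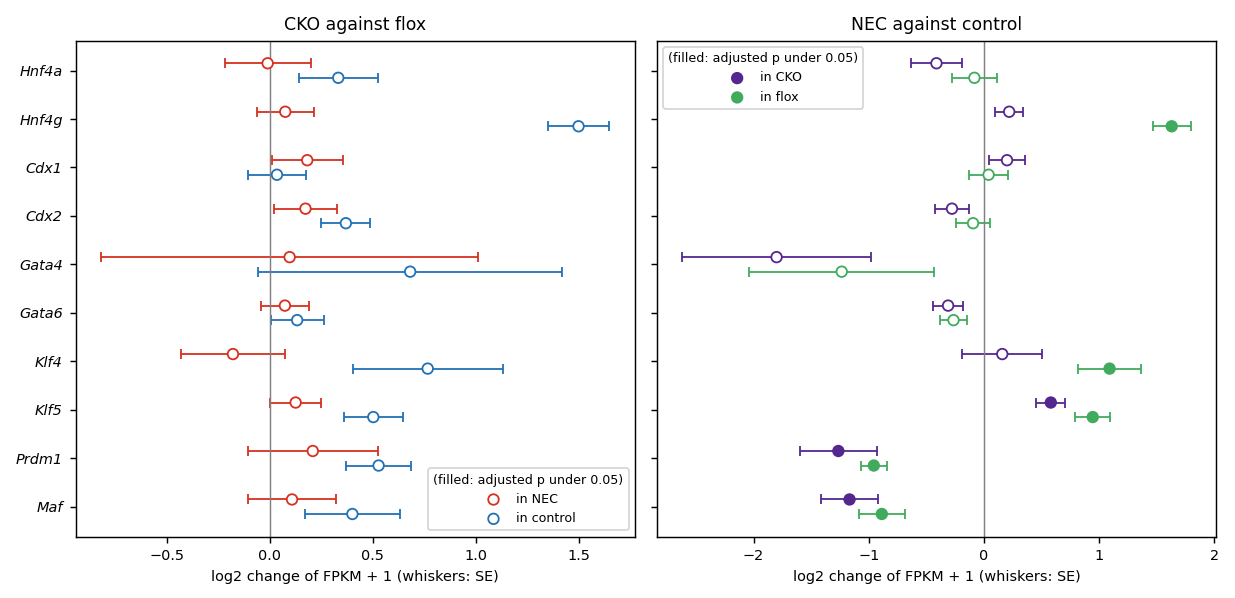
Change in log2(FPKM + 1) with its standard error (horizontal axes) of the 10 genes, at left for CKO against flox in NEC and control tissue and at right for NEC against control in CKO and flox tissue. Filled points passed limma's adjusted threshold; they are Klf5, Prdm1 and Maf in CKO, and Hnf4g, Klf4, Klf5, Prdm1 and Maf in flox, all at right.

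The members varied together in part over the 12 libraries, which share their groups. As descriptions, Pearson r was 0.911 for Gata6 and Maf, 0.875 for Hnf4g and Klf5, 0.871 for Prdm1 and Maf, 0.786 for Hnf4a and Gata6 and 0.755 for Klf4 and Klf5, and the lowest was -0.636 for Klf5 and Prdm1. Hnf4a and Hnf4g had an r of 0.089. Among 7178 other genes with a mean of at least 5 FPKM, Osbp (r = 0.986) was among the 2 most like Hnf4g. Tprgl (0.948) and P2ry1 (0.947) were most like Hnf4a, and Rpl6l (0.936) and Fabp1 most like Gata4. Lgals8 (0.992) and Mpp1 (0.991) were most like Maf, and Ppp1r21 (0.975) and Znfx1 (0.969) most like Prdm1. Axin1 (0.97999) was among the 2 most like Klf5. Egln3 (0.973) and Atp2b1 (0.949) came nearest to Klf4, Egln2 (0.969) and Tmem98 (0.952) to Cdx2, Rdh14 (0.973) and Lamtor3 (0.965) to Gata6, and Slc37a1 (0.893) and Dedd2 (0.869) to Cdx1, whose nearest genes had the lowest r of the 10. The markers of T cells and of granulocytes and monocytes summed to under 10 FPKM in every library, the 5 granulocyte and monocyte markers each under 1 FPKM.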

How the data were processed

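RNA from whole small intestine was isolated with Trizol and made into libraries with a NEBNext Ultra II kit, per the labels' protocols. The aligner, counter, strand setting and genome build are not stated in the labels or headers. The authors deposited FPKM in 2 tables, 1 for NEC and 1 for control, with 6 libraries each, and a gene length per gene, read per the file headers. FPKM times length fell on whole multiples of 1 step per library (100% of values within 0.05), which gave reads per gene. Median-of-ratios factors of those reads over 12 libraries gave the shared scale; the deposited NEC values sit 0.15 log2 above it. Genotypes and the interaction were tested on deposited FPKM, NEC against control on the shared scale, since each condition is 1 table.

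Genes reaching 1 FPKM in 3 or more libraries fitted were tested on log2(FPKM + 1) with limma 3.58.1 in R 4.3.3 (moderated statistics, mean-variance trend), each pair of groups alone and all 4 for the interaction, with Benjamini-Hochberg adjustment over all genes at 0.05. Ratios of paralogs were tested by exact permutation, stratified by the other factor, with no pseudocount. Tests were tried on simulated data. Python 3.11.15, numpy 2.4.6, pandas 2.3.3 and matplotlib 3.10.9 were used. Members and lists (7 pathway and 12 marker lists) were chosen with earlier results of these data known. Named from a list were up to 4 genes with the smallest p, and for likeness the 2 genes with the highest r, leaving out predicted gene models; some genes these rules name are not reported here.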

Additional observations from a re-analysis of the deposited data

Results flagged for a closer look

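The CKO difference of Hnf4g was not the same in the 2 conditions. Tested as an interaction over all 4 groups, the NEC difference minus the control difference came to -1.42 log2 (limma, adjusted p = 0.0367), from CKO differences of 0.07 in NEC and 1.498 in control tissue. The 3 flox control libraries stood below the other 9. The call was lost in 9 of the 12 fits that left out 1 library, as given with the values above, and it kept its direction in all 12 (-1.56 to -1.31).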

How the results depend on the processing

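Alternatives to the main fits were a pseudocount of 0.1, no filter or a mean FPKM of at least 5, library medians made equal, quantile normalization, a replicate block, a fit without the variance trend, array weights, limma-voom on recovered reads, 1 fit over all 4 groups, the other scale, and leaving out 1 library. Of CKO against flox in control, with 0 members called, 1 was called with a mean FPKM of at least 5, 2 with the replicate block, 4 with array weights, 1 with limma-voom, 2 in 1 fit over all 4 groups, and 0 to 2 without 1 library. In the interaction 0 members were called with equal medians and 0 to 1 without 1 library, and in NEC against control in CKO 1 to 3 without 1 library. Deviations of same-numbered libraries from their group means had r of -0.17 to 0.49 over 12 pairs, best with their own number in 4. With 3 libraries per group these values cannot settle whether libraries of 1 number share a source, which the labels do not say. The limma fit with the replicate block called Hnf4g and Klf4 in control (adjusted p = 0.0451 each) and Gata4 in NEC against control in flox (adjusted p = 0.0157). Over all genes, CKO against flox in control called 1 gene, but 0 with no filter, 626 higher and 134 lower with a mean FPKM of at least 5, 700 and 203 with the replicate block, 1589 and 611 with array weights, 288 and 72 with limma-voom, and 1458 and 593 in 1 fit over all 4 groups. The interaction called 31 higher and 150 lower, but 7 and 34 with no filter, 83 and 334 with a mean FPKM of at least 5, 1 and 0 with equal medians, 11 and 33 without the trend, 216 and 757 with array weights and 21 and 92 on the shared scale. Leaving out 1 library gave 0 to 2 higher and 0 to 1 lower in 9 of the 12 interaction fits, 8 and 20 without CKO NEC library 3, 80 and 227 without CKO control library 3 and 119 and 527 without flox control library 3. CKO against flox in control then called 0 genes in 5 of 6 fits and 677 higher and 153 lower without flox control library 3. NEC against control in CKO called 1248 and 1833 without CKO NEC library 1, 1276 and 1748 when library 2 of that group was left out, and 1611 and 1689 without CKO control library 2. On deposited FPKM the median of all genes moved to 0.14 in flox and 0.097 in CKO, and NEC called 4906 higher and 3123 lower in flox (3937 and 3810 on the shared scale) and 3140 and 2062 in CKO (2332 and 2726).

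Signs of changes that did not pass turned as follows. CKO against flox in NEC gave -8.45e-05 for Hnf4g after quantile normalization, and for Gata4 -0.15 with a pseudocount of 0.1, -0.19 with array weights and -0.15 with limma-voom. In control it gave -0.015 for Cdx1 with equal medians and -0.080 after quantile normalization, -0.0054 for Gata4 with array weights and -0.010 for Gata6 after quantile normalization, and the Gata6 interaction was 0.040. NEC against control in flox gave 0.33 for Hnf4a after quantile normalization, 0.036 with array weights and 0.073 on deposited FPKM, -0.042 for Cdx1 with equal medians, and for Cdx2 0.33 after quantile normalization and 0.062 on deposited FPKM. In CKO quantile normalization gave 0.0091 for Hnf4a and 0.15 for Cdx2. The cause was not tested.

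Without 1 library, signs turned within these ranges. In CKO against flox in NEC they were -0.21 to 0.18 for Hnf4a, -0.032 to 0.18 for Hnf4g, -0.41 to 0.78 for Gata4, -0.34 to 0.12 for Klf4, -0.017 to 0.62 for Prdm1 and -0.055 to 0.33 for Maf. In control they were -0.057 to 0.13 for Cdx1 and -0.26 to 1.26 for Gata4, and in the interaction -1.68 to 0.36 for Gata4, -0.13 to 0.0050 for Gata6 and -0.54 to 0.088 for Prdm1. In NEC against control they were -0.22 to 0.12 for Hnf4a, -0.081 to 0.19 for Cdx1 and -0.21 to 0.018 for Cdx2 in flox, and -0.029 to 0.48 for Klf4 in CKO. The ratio of Gata6 to Gata4 ran from -0.82 to 0.52 between CKO and flox, and that of Klf5 to Klf4 from -0.023 to 0.25 between NEC and control and from -0.14 to 0.17 between CKO and flox. No sign turned for the ratio of Hnf4g to Hnf4a, which ran from 1.09 to 1.33 between NEC and control and from 0.54 to 0.78 between CKO and flox, or for that of Cdx1 to Cdx2 between NEC and control, which ran from 0.28 to 0.35. Gata4 fell below the filter in 3 fits of CKO against flox in NEC, which gave no value.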
